A study of Rattus norvegicus with 21 samples.

Results

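The cerebral cortex of male SD rats taken 24 h after repeated hypobaric hypoxia was compared with the cortex of rats kept at normal oxygen. The comparison was defined by library, as 3 libraries at 24 h and 4 control libraries, 7 of the 21 in the series. Genes were kept where the mean over these 7 libraries was at least 10 normalized reads, which left 14809 of 30560 Ensembl rat gene IDs. At that limit the lowest kept mean was 10.01 and the highest mean left out was 9.97, with 155 genes within 1 read above it and 156 within 1 read below.

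The study used 12 rats, which arrived at 4 weeks of age, were labelled wild type, and weighed about 200 g after 2 weeks of acclimation. Of these, 8 were exposed in a decompression chamber to a simulated 28000 ft for 5 min, in 6 cycles at 3-day intervals, and 1 died during exposure. Control rats, 4 in number, had no exposure and stayed in normal air. The labels count 4 rats in the 24 h group, and the library of the remaining rat carried conflicting tissue labels and was left out. The libraries keep their replicate numbers here, so the 24 h libraries are 24 h 2, 24 h 3 and 24 h 4. A rat is the unit of replication, and a further 3 cortex libraries from rats killed at 48 h served to estimate the spread between animals. The question was which cortex genes differ 24 h after the last exposure.

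Low air pressure lowers the oxygen in the blood, and the brain, which lives mainly on oxidative metabolism, is sensitive to this. In cells with little oxygen the prolyl hydroxylases that mark hypoxia-inducible factors for destruction lose activity, and the factors then switch on genes for glycolysis, red cell production and vessel growth. In cortex, neurons, astrocytes, oligodendrocytes, microglia and vessel cells all contribute to the RNA of a dissected piece. The deposited table gives Ensembl IDs without gene names, and the reference used for naming held 0 Ensembl IDs. The genes of this pathway and of these cell types were therefore not looked at, the tissue label was not checked against its marker genes, and genes are described as numbers of IDs and through 4 IDs.

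Control 3 and 24 h 3 stood apart from the other libraries. Reads in genes ranged from 13099884 to 19304803 over the 7 libraries, and genes with any read from 18588 to 19688, both highest in control 3. The first principal component of the log2 values held 43.3% of the variance and placed control 3 at 99.8, with the other 6 libraries between -32.5 and 2.37. The second held 29.5% and placed 24 h 3 at 75.8, with the others between -31.7 and 12.5. On a scale where the median cortex library is 0 and the median hippocampus library is 1, set by genes that differ 4-fold or more between them, control 3 lay at 0.417 and 24 h 3 at 0.279. The other 5 libraries lay between -0.07 and 0.07. The position of control 3 came from genes high in cortex, where it lay at 0.606. On genes high in hippocampus it lay at 0.118, within the range of the other controls (0.0723 to 0.135). For 24 h 3 these positions were 0.204 and 0.402. Reads, genes with reads, the share of the 10 most abundant genes and this position were compared between the groups in exact permutation tests of 3 against 4 libraries (two-sided, 4 measures, p = 1, 0.857, 0.143 and 1, all adjusted p at least 0.571). These tests had little power, since the smallest p they allow is 0.0286, or 0.114 when 1 of 4 measures differs and is adjusted. The share of the 10 most abundant genes averaged 15.9% ± 1.64 in controls (SD, n = 4), and at 24 h it averaged 21.3% ± 6.5 (SD, n = 3).

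**Figure D1:**
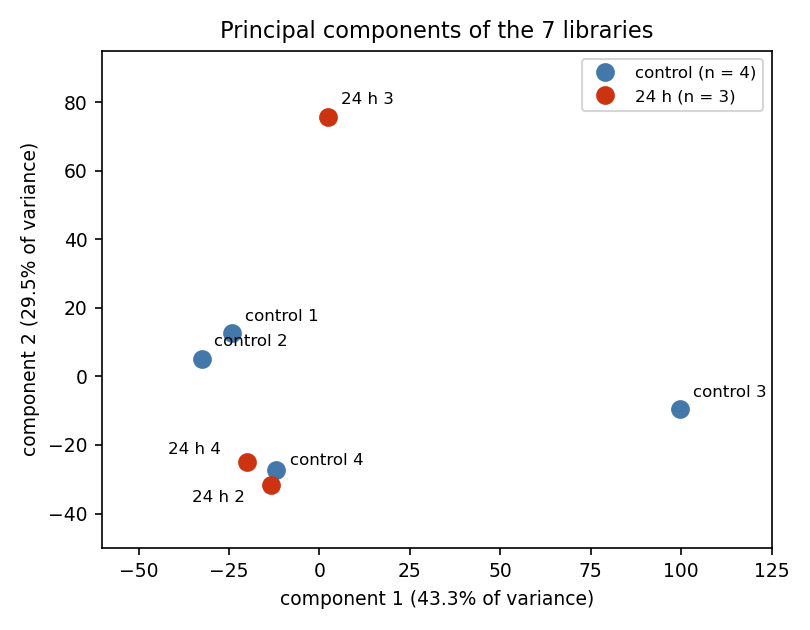
Principal components of the log2 values of 14809 genes, with component 1 on the horizontal and component 2 on the vertical axis in score units. Each point is 1 library, blue for the 4 controls and red for the 3 libraries at 24 h. Control 3 lies alone at 99.8 on the first component and 24 h 3 alone at 75.8 on the second, and control 4 lies beside 24 h 2 and 24 h 4.

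Libraries of a group were about as far from each other as libraries of different groups. The root mean square log2 difference over genes averaged 0.752 for the 12 pairs of a control with a 24 h library. It averaged 0.809 for the 6 pairs of controls and 0.727 for the 3 pairs at 24 h. Control 4 differed from 24 h 2 by 0.422 and from 24 h 4 by 0.501, less than it differed from any other control (0.569 to 0.992). Within the 24 h group, 24 h 2 and 24 h 4 differed by 0.377, the smallest distance of all 21 pairs, while 24 h 3 lay 0.913 and 0.892 from them. The difference between the group means made up 12.8% of the total variance over these 7 libraries, below the 16.7% that 1 of 6 degrees of freedom takes with no effect. Without control 3 and 24 h 3 this share was 36.9%, against 25% for 1 of 4 degrees of freedom. The average distance without these libraries was 0.561 between groups, 0.55 among 3 controls and 0.374 for the pair at 24 h. Control 3 and 24 h 3 were left out because they stood apart, so shorter distances follow in part from that choice.

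The libraries that stood apart were often the highest or the lowest of the 7, by shares that varied with how abundant a gene was. Each of 7 libraries would be the highest in 14.3% of genes with an even share. Control 3 was the highest of the 7 in 32% of the 2628 genes with a mean of 10 to 50 normalized reads, and in 9.25% of the 281 genes with a mean of 5000 or more. Control 3 was the lowest of the 7 in 59.4% of these most abundant genes. For 24 h 3 the share as highest ran the other way, as it was the highest in 16.8% of the low genes and in 31.3% of the most abundant. It was the highest of the 7 libraries in 10 of the 10 genes with the highest mean. That mean includes 24 h 3, so genes high in this library were favoured for the 10. These 10 genes took 28.3% of the reads of 24 h 3, against 13.8% to 19.9% in the other 6 libraries. The part of these patterns in the comparison of the groups was not tested beyond leaving out the libraries.

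**Figure D2:**
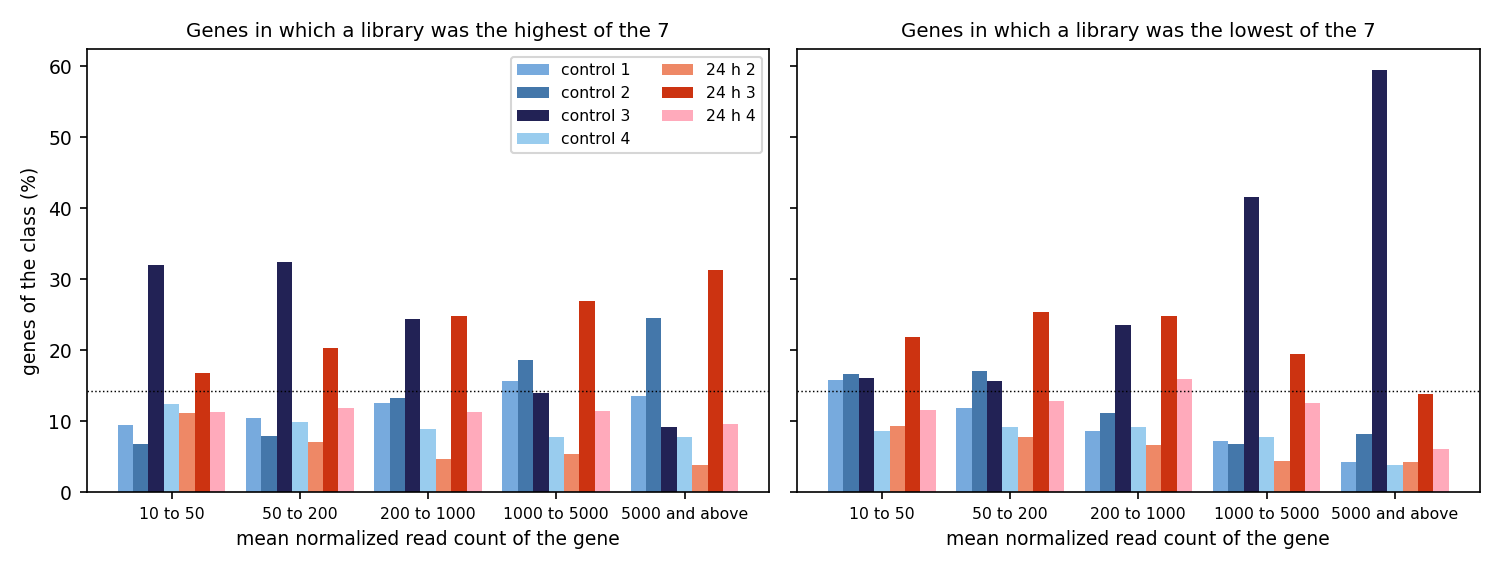
Share of genes in percent in which a library was the highest (left) or the lowest (right) of the 7, by the gene's mean normalized read count. Bars are libraries, blue tones for controls and red tones for 24 h, and the dotted line is the even share of 14.3%. Control 3 is the lowest in 59.4% of genes with a mean of 5000 or more, and 24 h 3 is the highest in 31.3% of them.

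In limma and edgeR no gene passed an adjusted p of 0.05 between 24 h and control, and DESeq2 called 58 genes. In limma, 0 of 14809 genes (0%) had an adjusted p under 0.05, and the smallest adjusted p was 0.604. edgeR's quasi-likelihood test on the recovered reads called 0 genes as well, with a smallest adjusted p of 0.577. At an unadjusted p under 0.05, limma had 1176 genes (7.94%), against an average of 740.5 expected with no effect. Genes vary together within a library, so a count can lie far from that average with no effect. The same rule gave 519 genes at 48 h against control and 303 in hippocampus at 24 h, both below that average. Of the 1176 genes, 511 (3.45% of all tested) were higher and 665 (4.49%) were lower at 24 h. That split depended on the scaling. Higher genes were 43.5% of those under the threshold with the deposited size factors, 53.8% with TMM factors and 55.8% with quantile normalization. The median log2 change of all genes was -0.02 with the deposited factors, 0.003 with TMM and 0.006 with quantile normalization. In tissue RNA a lower value can come from fewer cells of a type or from less RNA per cell, and these cannot be told apart.

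DESeq2 called 58 of the 8752 genes to which it gave an adjusted p (0.663%), 31 higher and 27 lower at 24 h. In limma all 58 were under an unadjusted p of 0.05, and their groups did not overlap. As limma read the same libraries, the match adds no support. At an unadjusted p under 0.05, edgeR had 1255 genes (8.47%) and DESeq2 had 1426 (9.72%). Without control 3 and 24 h 3, which left 3 controls against 2 libraries at 24 h, limma had 2262 genes under that threshold (15.4%), 914 higher and 1348 lower. It called 0, with a smallest adjusted p of 0.106. edgeR then also called 0 (smallest adjusted p 0.104) and DESeq2 called 354 (3.59%), 108 higher and 246 lower.

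**Figure D3:**
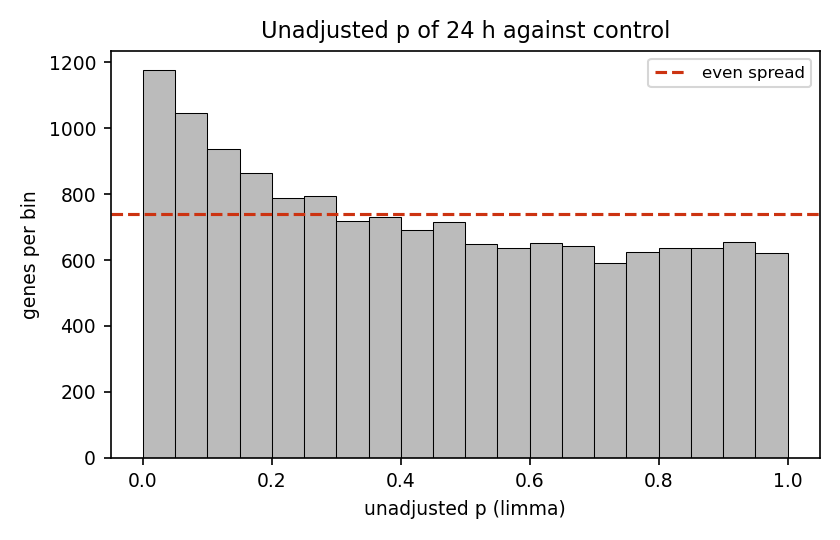
Number of genes in bins of 0.05 of the unadjusted limma p for 24 h against control, with the dashed line at 740.5 genes, the number each bin holds with an even spread. The lowest bin holds 1176 genes and the highest 620.

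Genes were also counted by separation in place of a model. In 1360 genes (9.18%) all 3 libraries at 24 h lay on the same side of all 4 controls, 626 above (4.23%) and 734 below (4.96%). With no effect, 2 of the 35 ways to split the 7 libraries into 3 and 4 separate a gene on average. The direction held by more genes turned with the scaling, with 724 above and 614 below under TMM and 727 and 573 under quantile normalization. Of these 1360 genes, 853 also had an unadjusted p under 0.05, and the median absolute log2 change of the 1360 was 0.42. Without control 3 and 24 h 3 the number was 5436 (37% of 14710), where only 2 libraries had to clear 3. Fewer libraries separate more often with no effect too, so this share is not comparable with 9.18%. Of the 1176 genes under the unadjusted threshold, 320 (27.2%) stayed under it whichever of the 7 libraries was left out, 132 higher and 188 lower. Their median absolute log2 change was 0.57, and in 311 of them the groups did not overlap. These genes were picked on the same libraries, so their staying under the threshold is no further support.

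Most changes were small, and the size that could be seen depended on how abundant a gene was. The median absolute log2 change was 0.21 and the median 95% interval reached 0.54 to either side. For 9820 genes (66.3%) the whole interval excluded a 2-fold rise and a 2-fold fall. This held for 25% of genes with a mean of 10 to 50 normalized reads, 62% at 50 to 200, 81% at 200 to 1000, 81.8% at 1000 to 5000 and 73.7% at 5000 or more. Genes under an unadjusted p of 0.05 were 3.31% of the lowest class, 6.74%, 9.71% and 11% of the next classes, and 4.63% of the most abundant. The SD of a gene between rats, as a median over genes on the log2 scale, was 0.31 among controls (n = 4) and 0.29 at 24 h (n = 3). Without control 3 and 24 h 3 it was 0.19 (n = 3) and 0.12 (n = 2). These libraries were left out because they stood apart, so a lower SD follows in part from that choice. A median SD from n = 2 also leans low.

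Changes of 2-fold or more were few, and single libraries set many of them. There were 292 such genes (1.97%), 119 higher (0.804%) and 173 lower (1.17%), and 156 of them had a mean under 50 normalized reads. The groups did not overlap in 66 of the 292, 28 higher and 38 lower. Leaving out control 3 kept 130 of the 292 at 2-fold or more in the same direction and turned the sign of 25. Leaving out 24 h 3 kept 184, and leaving out another library kept 220 to 267. Only 30 of the 292 stayed at 2-fold or more whichever library was left out, and 13 of these had groups that did not overlap. Without both libraries that stood apart, 518 genes (3.52%) reached 2-fold, now 346 higher and 172 lower, and 109 of the 292 were among them.

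**Figure D4:**
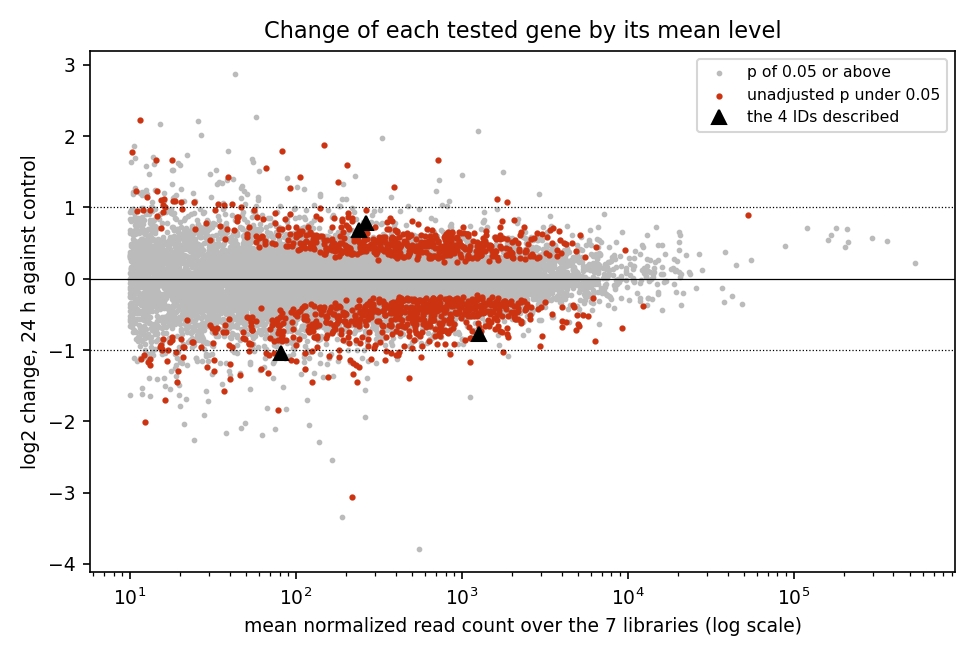
Log2 change at 24 h against control on the vertical axis, against the mean normalized read count over the 7 libraries on a log axis, for 14809 genes. Red points have an unadjusted p under 0.05 (1176 genes, 0 after adjustment), dotted lines mark 2-fold, and triangles are the 4 IDs described in the text. Most points lie within the dotted lines, and of the 292 beyond 2-fold 156 have a mean under 50.

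In each of the largest changes 1 control lay far above the other controls, which enlarged the falls and reduced the rises. These 5 genes are given by their values only. The gene with the largest fall had 3867 normalized reads in control 3 and 5.29, 6.82 and 5.99 in the other controls, and 6.45, 0 and 0.997 in 24 h 2, 24 h 3 and 24 h 4. Control 3 thus enlarged the log2 change of -3.79, while the other controls also lay above 24 h 3 and 24 h 4. The next had 1288 normalized reads in control 3 and at most 30.9 in the other 6 libraries (log2 change -3.35). The third fall was to 8.87, 14.1 and 4.98 from 51.1, 29, 1411 and 18 in controls 1 to 4. In this gene the groups did not overlap, with control 3 far above the rest, and its log2 change of -3.06 became -2.01 without control 3 and 24 h 3. The gene with the largest rise had 58.1, 67.2 and 14 normalized reads at 24 h and 0.882, 0, 1.78 and 158.6 in controls 1 to 4. Control 4 thus lay above all 3 libraries at 24 h. The second had 208.8, 3.53 and 53.8 at 24 h and 1.76, 2.56, 1.78 and 132.7 in controls 1 to 4, so the groups overlapped too. Both of these rising genes were among those that differed 4-fold or more between cortex and hippocampus. None of the 5 passed the test (limma adjusted p 0.614 to 0.722).

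Genes that part the tissues had a larger SD within these groups than all genes together. Tissue medians differed 4-fold or more in 327 genes, 115 higher in hippocampus and 212 higher in cortex. Their median SD on the log2 scale was 0.78 among controls and 0.64 at 24 h, against 0.31 and 0.29 over all genes. The SDs of the 327 include control 3 and 24 h 3, which lay at 0.417 and 0.279 on the tissue scale. They were not computed without these libraries or at matched abundance, so how far they hold for the other animals was not tested. Of the 327, 15 had an unadjusted p under 0.05 (4.59%, against 7.94% of all genes) and 15 differed 2-fold or more (4.59%, against 1.97%). Their median log2 change was -0.12 for genes higher in hippocampus and 0.09 for genes higher in cortex. Whether a different amount of neighbouring tissue in the dissected pieces had a part in this was not tested.

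No tested gene had 0 reads in every library of a group and reads in every library of the other group. A gene with any read in its low group was not counted here, however low it fell. In 17 genes all 4 controls had 0 reads and all 3 libraries at 24 h had some, with a mean of at most 2.61 normalized reads at 24 h. In 22 genes the reverse held, with a mean of at most 4.3 in controls. None of these 39 genes reached the mean of 10 needed for testing.

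The 4 IDs with the smallest unadjusted p, 2 in each direction, show what the leading differences look like. They were picked for their p, so their separation, their intervals and their differences from the 48 h libraries are no further support. None passed the adjusted threshold (limma adjusted p = 0.604 for each). In all 4, control 3 and 24 h 3 lay on the side of their own group.

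ENSRNOG00000009530 was higher at 24 h. It had 178.1, 197.7, 192.1 and 191.5 normalized reads in controls 1 to 4, and 286.2, 324.3 and 308 in 24 h 2, 24 h 3 and 24 h 4. The lowest library at 24 h lay well above the highest control. The means were 190 ± 8.31 (SD, n = 4) and 306 ± 19.1 (SD, n = 3), a log2 change of 0.69 (SE 0.13) or 1.61-fold. At 48 h the values were 190.4, 174 and 218.2, in and around the range of the controls. The 48 h libraries lay below those at 24 h by a log2 difference of -0.66 (SE 0.14, limma adjusted p = 0.361).

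ENSRNOG00000030520 also stood higher. Controls 1 to 4 had 203.7, 174.7, 209.4 and 222.5 normalized reads, and 24 h 2, 24 h 3 and 24 h 4 had 304, 409.1 and 337.9. All 3 lay above all controls, with 24 h 3 the highest of the 7. The log2 change was 0.78 (SE 0.15, 95% interval 0.45 to 1.12), or 1.72-fold, and it was 0.68 without control 3 and 24 h 3. At 48 h the values of 181.8, 213.1 and 207.3 lay within the range of the controls.

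ENSRNOG00000001004, the most abundant of the 4, was lower at 24 h. It had 1429, 1531, 1724 and 1488 normalized reads in controls 1 to 4 and 1009, 758.1 and 941.1 at 24 h. The lowest control lay above the highest library at 24 h, and 24 h 3 was the lowest of the 7. The means were 1543 ± 128 (SD, n = 4) and 903 ± 130 (SD, n = 3), a log2 change of -0.78 (SE 0.14), or a level 0.583 times that of controls. Without control 3 and 24 h 3 the log2 change was -0.6. At 48 h it had 1773, 1439 and 1376 normalized reads, from just below to just above the control range.

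ENSRNOG00000055650 showed the largest change of the 4. Controls 1 to 4 had 128.7, 108.2, 86.2 and 97.8 normalized reads, and 24 h 2, 24 h 3 and 24 h 4 had 60.5, 46.8 and 43.9. The groups did not overlap, and the gap between 86.2 and 60.5 was narrower than the spread among the controls. The log2 change was -1.05 (SE 0.2, 95% interval -1.48 to -0.61), or a level 0.484 times that of controls. At 48 h it had 85, 89.9 and 80.3 normalized reads, below controls 1, 2 and 4 and above all libraries at 24 h.

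**Figure D5:**
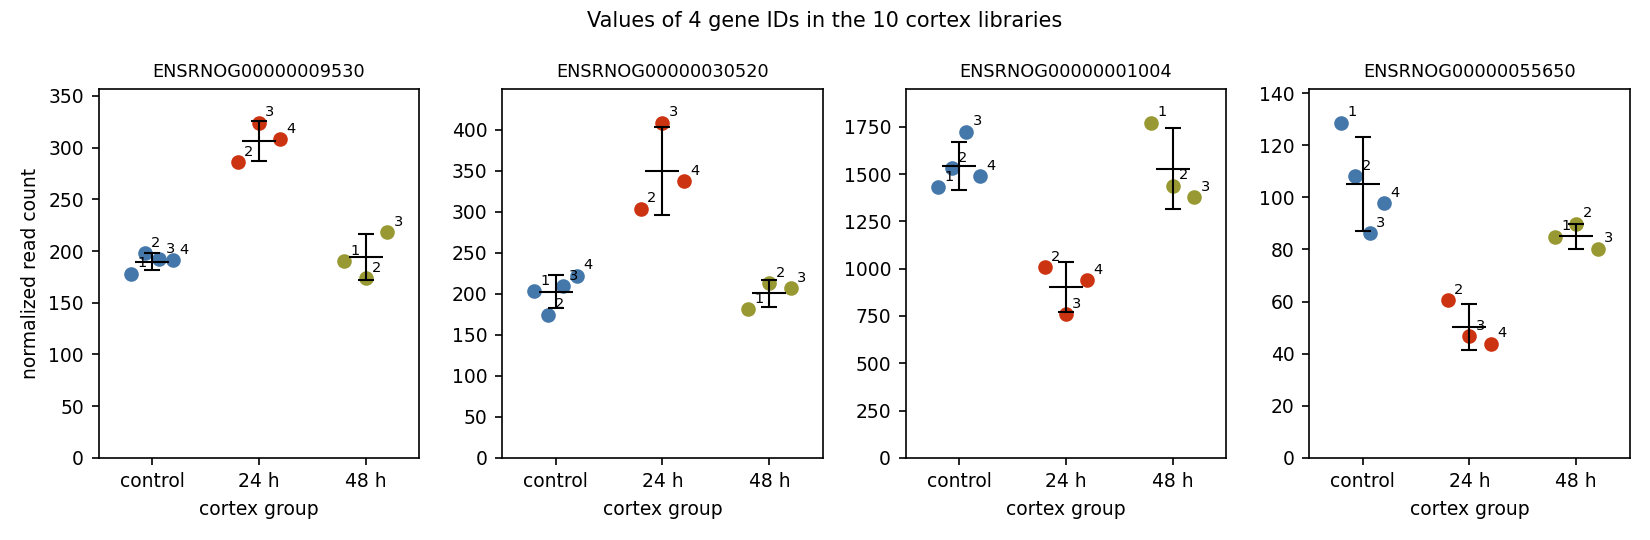
Normalized read counts, on a vertical axis from 0, of 4 gene IDs in 4 control, 3 24 h and 3 48 h cortex libraries. Points are libraries with their replicate number, and bars are mean and SD. In each ID the 24 h points do not overlap the controls, and the 48 h points lie near the controls.

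Both exposure times were compared with the same 4 controls, so their changes are given side by side only. At 48 h the log2 change against control was 0.03 for ENSRNOG00000009530, -0.01 for ENSRNOG00000030520, -0.02 for ENSRNOG00000001004 and -0.29 for ENSRNOG00000055650 (limma adjusted p at least 0.884). Directly between 48 h and 24 h, limma gave these IDs adjusted p of 0.361, 0.361, 0.361 and 0.372. The IDs were picked on the same 24 h values, so this comparison leans toward a difference. Over all genes, 519 (3.5%) had an unadjusted p under 0.05 at 48 h against control, and 1176 (7.94%) at 24 h.

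Hippocampus and cortex libraries came from the same rats, since the study had 4 control rats and each tissue has 4 control libraries. Whether equal numbers in both tissues stand for 1 rat is not in the labels, and the tissues are thus not independent replicates. In hippocampus the groups of these IDs overlapped at 24 h. ENSRNOG00000009530 had 206 ± 58.2 normalized reads at 24 h (SD, n = 3) and 232 ± 69.8 in controls (SD, n = 4), a log2 change of -0.16 with a 95% interval of -0.92 to 0.61. ENSRNOG00000030520 had a log2 change of -0.21 (-1.02 to 0.6) and ENSRNOG00000001004 one of 0.04 (-0.46 to 0.55). For ENSRNOG00000055650 it was 0.63, with a wide interval of -1.18 to 2.44. Hippocampus control 1 was the shallowest library of the series, with 4654096 reads in genes, and it set the sign for 2 of these IDs. It held 1 read of ENSRNOG00000055650, whose log2 change was -0.24 (-0.98 to 0.51) without it. For ENSRNOG00000030520 it was the highest control, and the log2 change was 0.09 (-0.49 to 0.68) without it. For ENSRNOG00000009530 and ENSRNOG00000001004 the values without it were -0.33 and 0.07, and none of the 4 passed the test (limma adjusted p = 1 for each). The difference in response between the tissues passed the adjusted threshold for none of the 4 (limma interaction, adjusted p = 0.859 for each), nor for any other gene tested (3.46% at an unadjusted p under 0.05). That fit took the libraries as independent. With exposure group and replicate number together taken as the rat and used as a block, limma also called 0 genes, with 2.88% at an unadjusted p under 0.05. The estimated correlation within a block was -0.069, so this fit cannot show what a shared rat would change. Of the 1176 cortex genes at an unadjusted p under 0.05, 586 (49.8%) had the same sign in hippocampus, against 49.5% of all genes. Without hippocampus control 1 it was 620 (52.7%), against 52.1% of all genes. Both tissues had an unadjusted p under 0.05 in 17 genes, which is 1.45% of the cortex genes and 5.61% of the hippocampus genes under that threshold, and 8 of the 17 had the same sign. In hippocampus 2.05% of all genes were under that threshold.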

How the data were processed

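TRIzol-extracted RNA was sequenced from stranded mRNA libraries, per the labels' protocols. fastp 0.20.0, HISAT2 2.1.0 and featureCounts 2.0.1 are named in the submitters' processing notes. The build, annotation, count filter and strand setting were not given in the sources used here. Per the values, the signal that the authors deposited is the read count of a gene over a size factor of its library. All values (100%) were within 0.001 of a whole multiple of the smallest value in their column. A size factor removes a shift shared by most genes.

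Groups came from the sample titles. limma 3.58.1 (R 4.3.3) was run on log2(value + 1) (intensity trend, two-sided, Benjamini-Hochberg adjustment over 14809 genes, threshold 0.05), on 10 cortex libraries in 3 groups. Fold changes are on that scale and are too small for low genes. edgeR 4.0.16 and DESeq2 1.42.0 on the recovered reads were alternatives. The tests were checked on simulated counts. Within a group, libraries differed far more than counting noise (chi-square over its degrees of freedom 16.6 to 150.3), so none was the same library deposited again. Of 30560 IDs, 0 could be paired with a name in the reference (assembly GRCr8, 47357 genes), so 40 gene lists and the rule for named genes could not be applied. In their place the 2 IDs with the smallest p in each direction are named, as the rule allowed, and the 5 genes with the largest changes were chosen after seeing their values. The comparison, lists, tests and alternatives were chosen with earlier results of these data known.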

Additional observations from a re-analysis of the deposited data

Results flagged for a closer look

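Among the 4 controls, 12 measures were tested for a library far from the other 3, and 2 picked out a library, where chance gives about 1 in 20. The measures overlap. Control 3 had reads in 19688 genes, against 18666 to 18722 in controls 1, 2 and 4, and it lay at 99.8 on the first principal component. The group of 3 at 24 h was too small for this test.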

How the results depend on the processing

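limma called 0 genes under every alternative run, and edgeR called 0 with and without the 2 libraries that stood apart. DESeq2 called 58, and 354 without them. The edgeR and DESeq2 runs without these libraries were added after seeing the data. At an unadjusted p under 0.05 the number of 1176 genes became 427 with all 20 libraries in the fit, 2781 with estimated library weights, which were 0.169 for control 3 and 0.188 for 24 h 3, and 2262 without both. Without both it was 2258 in edgeR and 2145 in DESeq2. Leaving out 1 library gave 882 to 1794, the highest without control 3. The number of genes whose groups do not overlap was 5436 without both, and 1746 to 3208 with 1 library left out. It rose most without control 2 (2076), control 3 (2851), 24 h 2 (2336) and 24 h 3 (3208), in fits where fewer libraries had to separate. With the replicate number as a block, limma called 0 and put 786 genes under the unadjusted threshold. Control and exposed rats share only a number, and deviations of same-numbered libraries correlated at -0.11, 0.11 and 0.24. Not every library correlated best with its own number. The 4 named IDs kept their direction in all alternatives run. They were picked from these libraries and their groups did not overlap, so leaving out libraries could not turn it. DESeq2 gave adjusted p of 0.000884, 0.00283 and 0.00305 for ENSRNOG00000009530, ENSRNOG00000030520 and ENSRNOG00000001004, and none for ENSRNOG00000055650. In all limma and edgeR alternatives their adjusted p was at least 0.108. Leaving out hippocampus control 1 and the block by rat between tissues were added after seeing the data. Medians of gene lists were not run, for want of gene names.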
